A study of Drosophila melanogaster with 4 samples.

Results

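The genes thw, Ppa and axed of Drosophila melanogaster are described here from RNA that came down with the poly(A)-binding protein (PABP). They are 3 of the 17806 named genes in the deposited count table, matched by symbol, and all 3 were among the 9989 genes with enough counts to be tested. They were chosen by their ratio of PABP IP to input counts, so that difference is given as a description, with no p-value. The 2 PABP IP libraries hold RNA recovered on FLAG beads from adult flies, and their labels assign it to intestinal progenitor cells. The 2 input libraries hold RNA taken from the whole extract before the precipitation, and their labels assign it to all cells. Each sample was made from 200 ground and ultraviolet-treated adults, 100 of each sex. The labels give no genotype, driver or age, and whether the replicates are separate collections of flies is not stated. Spread between replicates, and every p-value resting on it, may therefore be technical. Where a group has a pair of values, they are those of replicates 1 and 2 in that order.

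PABP coats the poly(A) tails of messenger RNAs and takes part in their translation and stability. Precipitating PABP carried by a single cell type is a way to read that cell type's messages without dissecting the tissue. Intestinal progenitors are the stem cells of the fly gut together with their early daughters, which replace the cells of the gut lining. The gene Ppa (Partner of paired, CG9952) encodes an F-box protein with leucine-rich repeats, listed in RefSeq under the synonym FBXL14. F-box proteins are the parts of SCF ubiquitin ligases that choose which protein is marked for destruction. Ppa is known for the turnover of the segmentation factor Paired in embryos and of the centromeric histone Cid. The gene axed (axundead, CG8398) encodes a BTB-domain protein that injured fly axons need in order to fall apart, downstream of the NAD-consuming protein Sarm. The gene thw (thawb, CG14608) is little studied. It is thought to encode a secreted protein with a chitin-binding domain, an assignment that was not checked against a protein sequence here.

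Library depth sets what can be said of these genes. Gene counts summed to between 2464629 and 10761349 per library, and both input libraries were shallower than both IP libraries. All 6 progenitor markers examined (esg, Dl, Sox21a, Sox100B, klu, zfh2) rose in the IP, with a summed level of 8545 and 9280 CPM in the IP libraries, against 103 and 103 CPM in the input libraries. Their part in the values of thw, Ppa and axed was not tested. CPM is the usual depth-scaled count, here after TMM scaling, which sets the zero point from the bulk of the genes. All 6 female germline and all 5 tested muscle markers fell, and of 6 enterocyte markers 5 fell and Myo31DF was called higher under TMM (0.48) but not with upper-quartile factors, the authors' size factors or library size alone, where it turned to between -0.37 and -0.02. Of 6 markers of enteroendocrine cells, which release peptide hormones, pros rose (1.01; not called with library size alone, 0.16), Mip fell and 4 were not called, and their summed level was 138 and 157 CPM in the IP libraries, against 87.9 and 76.4 CPM in the input libraries. These marker calls are from edgeR's quasi-likelihood test at an adjusted p below 0.05, and they stand beside 37.1% of all tested genes called higher and 38.8% called lower. Among the markers, pros overlaps 5 other genes and all 6 female germline genes overlap 1 or 2, so their counts are uncertain. The genes zfh2, nub, Mal-A1, Myo31DF, Act57B, Tk and Dh31 overlap 1 each. In such bulk RNA, fewer cells of a type and less RNA per cell cannot be told apart. No control precipitation was analysed here, so expression in progenitors, binding by PABP and background on the beads cannot be told apart either.

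The little-studied gene thw was nearly absent from the input. It had 2204 and 2498 counts in the IP libraries, against 2 and 7 counts in the input libraries. The IP libraries were close to each other. That the groups did not overlap follows from the choice of the gene by this ratio. At the TMM-normalised level seen in the IP, input 1 would have held 1051 counts of thw and input 2 would have held 1454. The exact Poisson 95% interval was 0.242 to 7.22 for the 2 counts of input 1 and 2.81 to 14.4 for the 7 counts of input 2, and these intervals overlap. The ratio of input 1 to input 2 after scaling was 0.395 (0.0400 to 2.07), an interval that included 1 but is too wide to exclude a large difference. The ratio of PABP IP 1 to PABP IP 2 was 1.01 (0.955 to 1.07). Mean levels were 321 ± 2.67 CPM in the IP and 1.08 ± 0.661 CPM in the input (SD, n = 2 each). The fitted log2 fold change was 8.10, a 273-fold difference. The ratio of summed counts, 4702 in the IP and 9 in the input, was 278 after TMM scaling, with an exact 95% interval of 146 to 609. Intervals of this kind cover counting error only. The input libraries decide this value: the fold was 504 without input 2 and 204 without input 1. Set against input 1 alone, the ratio was 525 with an interval of 145 to 4340, so the size of the difference is known only within a wide range.

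The F-box gene Ppa was a well-covered message in the IP and a scarce one in the input. It had 7830 and 9694 counts in the IP libraries, against 41 and 70 counts in the input libraries. Both IP libraries lay above both input libraries, which again follows from how the gene was chosen. Equal levels would have put 3907 counts of Ppa into input 1 and 5401 into input 2. Its mean level was 1192 ± 64.5 CPM in the IP and 14.0 ± 2.08 CPM in the input (SD, n = 2 each), a fitted log2 fold change of 6.39 or 84.1-fold. The ratio of summed counts was 84.1 with an exact 95% interval of 69.8 to 102. PABP IP 1 held 0.926 times the Ppa level of PABP IP 2 (0.899 to 0.954), a small difference beyond counting error. For the input the ratio of replicate 1 to 2 was 0.810 (0.537 to 1.21), which included 1.

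The axon degeneration gene axed showed much the same pattern. It had 6792 and 8682 counts in the IP libraries, against 32 and 59 counts in the input libraries. Here too the gap between the groups follows from the choice of the gene. Equal levels would have put 3446 counts of axed into input 1 and 4764 into input 2. The means were 1052 ± 80.6 CPM in the IP and 11.4 ± 2.30 CPM in the input (SD, n = 2 each), a fitted log2 fold change of 6.50 or 90.5-fold. The ratio of summed counts was 90.6 with an exact 95% interval of 73.7 to 113. This interval overlapped that of Ppa (69.8 to 102) over most of its length, so the 2 genes could not be ordered by fold. That of thw (146 to 609) lay above both. PABP IP 1 held 0.897 times the axed level of PABP IP 2 (0.869 to 0.926), and for the input that ratio had an interval of 0.472 to 1.17, which included 1.

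**Figure D1:**
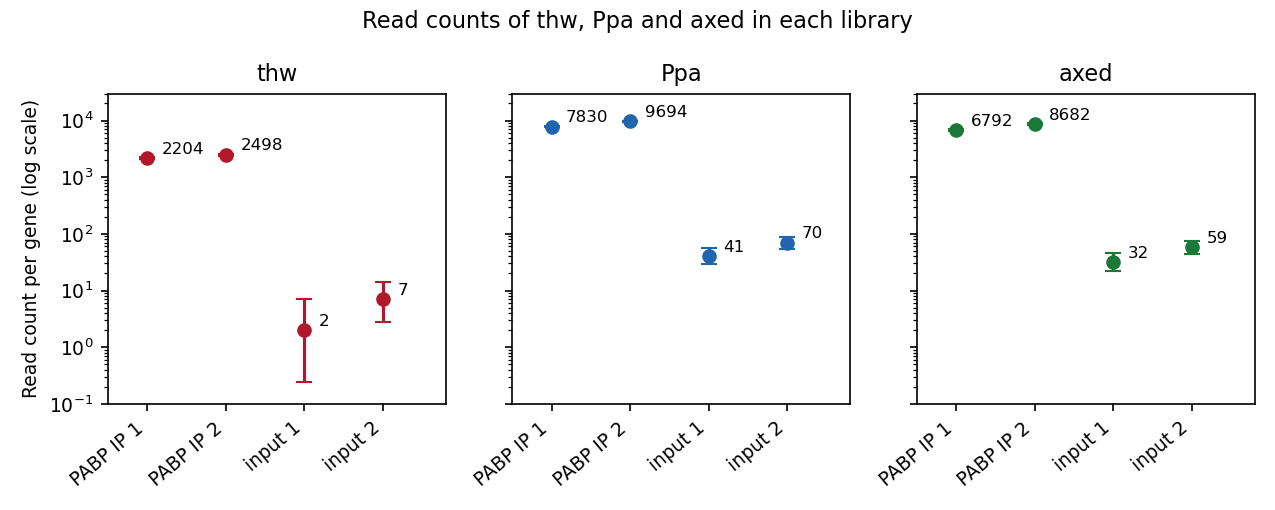
Read counts of thw, Ppa and axed in each library on a log axis; points are counts, labelled with their value, and bars are exact Poisson 95% intervals. The IP counts run from 2204 to 9694 and the input counts from 2 to 70, with wide intervals for thw in the input.

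The levels of the 3 genes can be ordered once divided by gene length. The lengths in the count table are 16725 bases for thw, 4033 for Ppa and 9789 for axed, each equal to the whole gene span in the RefSeq table, introns included. Levels per kilobase are therefore lowered in genes with long introns. In the IP, Ppa had 284 and 307 CPM per kilobase in replicates 1 and 2, axed 102 and 113, and thw 19.3 and 19.1. In the input, Ppa had 3.10 and 3.83 CPM per kilobase, axed 0.998 and 1.33, and thw 0.0365 and 0.0924. The order Ppa, axed, thw held in every library, and no 2 genes overlapped within a group. Ppa stood 2.80 and 2.71 times above axed per kilobase in the IP, and 3.11 and 2.88 times above it in the input. Without division by length the gap was far smaller, at CPM ratios of 1.15 and 1.12 in the IP and 1.28 and 1.19 in the input, so its size rests on spans that include introns.

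Among the 9989 tested genes, Ppa and axed ranked high in the IP and in the lower part of the input. By level per kilobase, Ppa ranked 161 in the IP and 7095 in the input. For axed the ranks were 567 in the IP and 8590 in the input. For thw they were 3589 in the IP and 9914 in the input, above the median in the IP and among the lowest of all tested genes in the input. By CPM without division by length the IP ranks were 159 for Ppa, 203 for axed and 1033 for thw, and the input ranks were 6626, 7006 and 9876, so the IP ranks of axed and thw depend strongly on the length used. The median tested gene had 10.5 CPM per kilobase in the IP and 9.45 in the input. By fold change, a quantity that chose these genes, thw ranked 7, axed 25 and Ppa 26, and 32 tested genes in all had a log2 fold change of at least 6.

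**Figure D2:**
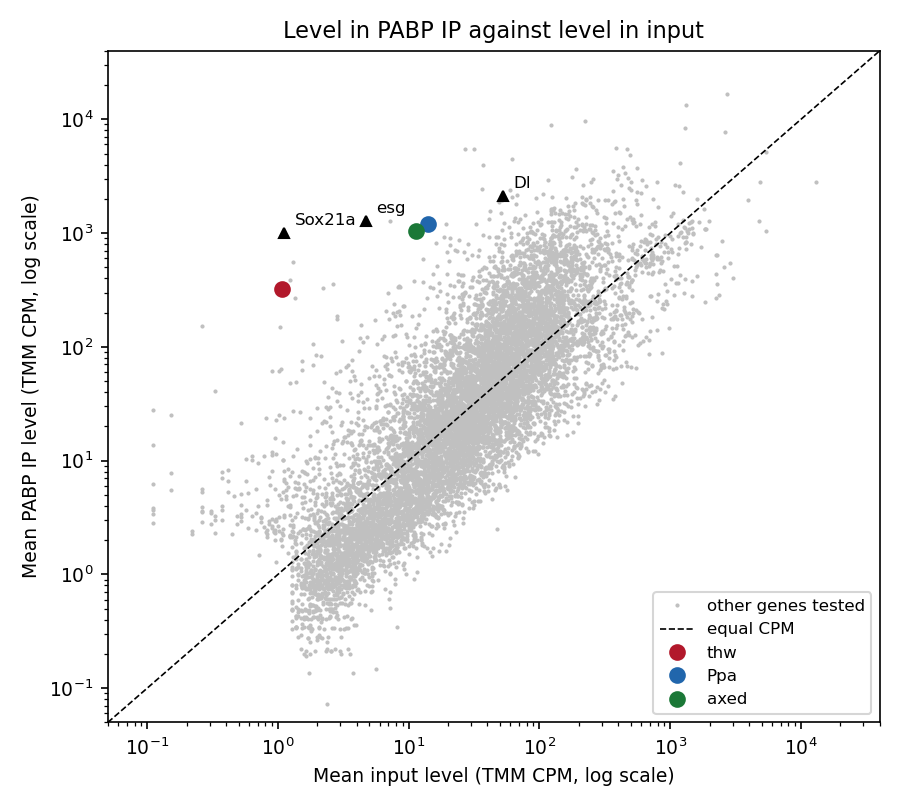
Mean level in the PABP IP (vertical) against mean level in the input (horizontal) in TMM CPM on log axes, for all 9989 tested genes; coloured points are thw, Ppa and axed, and triangles are 3 progenitor markers. Ppa and axed lie almost on top of each other, between esg and Dl in input level and slightly below esg in IP level, and thw lies directly below Sox21a at about the same input level.

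The nearest genes by profile were found over the 4 libraries as the root mean square difference in log2 CPM. Ppa and axed were each other's nearest gene among all genes tested, at a difference of 0.25. After axed, the genes closest to Ppa were the small heat shock gene Hsp23 (0.35) and the forkhead transcription factor gene fkh (0.43). After Ppa, those closest to axed were fkh (0.47) and the Notch response gene E(spl)m3-HLH (0.52). The profile of thw was closest to the transcription factor gene Sox100B (0.27), the Notch response gene E(spl)malpha-BFM (0.29) and the cytokine gene upd3 (0.76). Sox100B had 2701 and 2927 counts in the IP libraries, against 3 and 7 in the input libraries, nearly the counts of thw itself. Only 6 tested genes lay within a difference of 1 of thw, while 17 did so for Ppa and 18 for axed. With 4 libraries in 2 groups such likeness reflects level and fold alone.

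The 3 genes lie on different chromosome arms, thw on 3R, Ppa on 2R and axed on 3L, and none overlaps another gene in the RefSeq table. Their counts thus share no reads with an annotated neighbour by position. The genes beside thw did not follow it. On one side CG14605 had 34 and 24 counts in the IP libraries, against 19 and 27 in the input libraries, and was not called (log2 fold change -0.56, adjusted p = 0.136), though it was called lower without PABP IP 1 (-0.92) and under 3 other scalings (upper quartile -1.17, library size -1.41, the authors' factors -1.06). On the other side CG14607 had 2 and 5 counts in the IP libraries, against 6 and 17 in the input libraries, and fell (-2.56, adjusted p = 0.000704). Next to axed, lncRNA:CR45418 had 3 and 2 counts in the IP libraries and 0 in both input libraries, and the glutamate receptor gene GluRIA, with 4 and 17 counts in the IP libraries, against 9 and 9 in the input libraries, was not called (-0.69, adjusted p = 0.258). Without PABP IP 2 it was called lower (-1.95), as it was with upper-quartile factors or library size alone.

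The annotated genes next to Ppa on either side are the noncoding lncRNA:CR44761 and lncRNA:CR44762, and neither exceeded 5 counts in any library. The nearest protein-coding genes were looked up after the counts around Ppa had been seen. The axon guidance receptor gene robo1, on one side of Ppa, had 2234 and 2667 counts in the IP libraries, against 49 and 63 in the input libraries. It rose by a log2 fold change of 4.54 (edgeR, adjusted p = 2.98e-14). On the other side RYBP, a gene of a Polycomb-associated protein, had 1518 and 1941 counts in the IP libraries, against 117 and 164 in the input libraries, and rose by 2.71 (adjusted p = 1.64e-12). RYBP overlaps 2 other genes, so its counts are uncertain, while robo1 overlaps none. Both protein-coding neighbours of Ppa thus rose and neither neighbour of thw did, beside 37.1% of all tested genes called higher. Whether the rise of robo1 and RYBP has to do with their position was not tested. For axed, Rexo5 rose by only 0.30 (adjusted p = 0.0128), a direction that turned with library size alone (-0.55), upper-quartile factors (-0.31) and the authors' size factors (-0.20).

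Genes related to each member were compared by the same fit over all genes, beside the 37.1% called higher and 38.8% called lower overall. Chitin-binding protein genes, a list chosen after the files were opened and related to thw only if its unchecked assignment holds, were mostly lower in the IP. Of 15 genes, 8 were tested, 7 fell and verm was not called (-0.61, adjusted p = 0.0855; called lower under several alternatives, as without PABP IP 1, -1.08), and the list's median log2 fold change was -1.57, against -0.10 for all tested genes. The tracheal chitin-binding protein gene Gasp had a log2 fold change of -1.77, the chitin deacetylase gene serp one of -1.82, Peritrophin-15a one of -1.90 and obst-A one of -1.18, the last not called in DESeq2 (-1.09) or without input 2 (-0.80). The neighbour of thw, CG14607, is also on this list. DESeq2 called only 4 of the 8 lower, as did the fit without input 2. Another 5 of the 15, obst-F, obst-G, obst-I, obst-J and Peritrophin-15b, had 0 counts in every library. Of these, obst-J lies wholly inside gig and Peritrophin-15b wholly inside asRNA:CR45343, and obst-F and obst-I each overlap 1 other gene. Their 0 counts are therefore uncertain, while obst-G overlaps none. Markers of epidermis and trachea, tissues that make cuticle, summed to 53.0 and 42.9 CPM in the IP libraries, against 108 and 111 CPM in the input libraries, and 3 of 6 fell while none rose. The genes serp and verm are on both lists.

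Zona pellucida domain proteins are a further family of the apical matrix that covers fly epithelia. Of 14 such genes 9 were tested, 6 fell and only tyn rose (median -1.27). The shares were 11.1% called higher and 66.7% called lower, against 37.1% and 38.8% of all tested genes. With DESeq2, and with a minimum count of 50, only 4 were called lower. The fallers included pio (-1.29), pot (-1.62), qsm (-1.39) and the giant matrix gene dpy (-0.52). The gene tyn, known from tracheal and epidermal barrier formation, had 423 and 632 counts in the IP libraries, against 33 and 30 in the input libraries, and rose by a log2 fold change of 3.14 (adjusted p = 2.35e-10). Its span overlaps 4 other genes, so its counts are uncertain. The 8.10 of thw, chosen by this ratio, is no yardstick for these matrix genes.

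SCF core genes and other F-box genes, which encode alternative substrate receptors, were compared with all tested genes. The 6.39 of Ppa is no yardstick for them, as Ppa was chosen by this ratio. Of these 16 genes 15 were tested, 7 rose, 3 fell and 5 were not called, with a median of 0.17, and ntc had 0 counts in every library. The share called higher was 46.7%, against 37.1% of all tested genes. The F-box gene FBXO11 rose most (2.68, adjusted p = 1.01e-12), with 3037 and 3444 counts in the IP libraries, against 225 and 314 in the input libraries. The F-box gene slmb, a regulator of Hedgehog and Wnt signalling, rose by 1.77. Among the core subunits, the scaffold Cul1 (0.73), the RING protein Roc1a (0.82) and the F-box adaptor SkpA (0.35, adjusted p = 0.00692) rose under TMM but turned to -0.13, -0.04 and -0.51 with library size alone. SkpA also turned with upper-quartile factors (-0.26) and the authors' size factors (-0.15), and it was not called without input 2 (0.24) or with a minimum count of 50 (0.19). The F-box gene Fbl6 (0.72) turned to -0.13 with library size alone. Cul1, Roc1a and Fbl6 each overlap 1 other gene. Among all 15, 2 rose and 9 fell with library size alone, where 2209 of all 9989 tested genes rose and 6347 fell. The known targets of Ppa are the proteins Cid and Paired, whose turnover RNA counts do not measure. The centromeric histone gene cid fell (-2.18, adjusted p = 1.95e-07), with 38 and 34 counts in the IP libraries, against 78 and 96 in the input libraries. The pair-rule gene prd was not called (-0.97, adjusted p = 0.0752) at no more than 11 counts in any library, though it was lower under limma-voom (-1.03) and under upper-quartile (-1.58), library-size (-1.82) and the authors' scaling (-1.47).

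Genes of axon degeneration and NAD metabolism were mixed, with more rising than falling. Of 10 tested, 6 rose, 3 fell and hiw was not called (-0.25, adjusted p = 0.0903), with a median of 1.25. The shares were 60.0% called higher and 30.0% called lower, against 37.1% and 38.8% of all tested genes. Under upper-quartile, library-size or the authors' scaling, 5 were higher and 4 lower, with hiw among the lower ones. Over all 9989 genes these scalings gave 2574, 2209 and 2750 higher and 5719, 6347 and 5384 lower, in that order. The zinc-finger gene peb, which takes part in the degeneration of injured axons, had 12879 and 14665 counts in the IP libraries, against 173 and 206 in the input libraries (log2 fold change 5.26, adjusted p = 2.98e-14). Naam, a nicotinamidase of the NAD salvage route, rose by 4.18 and Nadsyn, the NAD synthetase gene, by 1.66. The gene of Sarm, listed as Ect4, rose by 1.71 at 805 ± 8.19 CPM in the IP and 247 ± 12.0 CPM in the input (SD, n = 2 each), and the engulfment receptor gene drpr rose by 2.24. Nmnat, the NAD-synthesising enzyme that protects axons, rose by 0.85 (adjusted p = 0.000458), a call lost with upper-quartile factors (0.23), the authors' size factors (0.35) and library size alone (-0.01). Ect4 overlaps 7 other genes, drpr 3, Nadsyn 2 and Naam 1, so their counts are uncertain. The kinase gene wnd (-0.60), Naprt (-0.71) and Rae1 (-0.51) fell, with Rae1 not called in DESeq2 (-0.44) or without input 2 (-0.43).

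No tested neuron marker was called higher, against 37.1% of all tested genes. Of 8 such genes 7 were tested, 3 fell (nSyb, Gad1 and VGlut) and 4 were not called. The share called lower was 42.9%, near the 38.8% of all tested genes. The list summed to 171 and 211 CPM in the IP libraries, against 276 and 232 CPM in the input libraries. The defining neuronal gene elav had no more than 1 count in any library, but its span overlaps 2 other genes. ChAT overlaps 5 other genes, and Gad1, VGlut, para and Syt1 overlap 1 each, so their counts are uncertain.

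**Figure D3:**
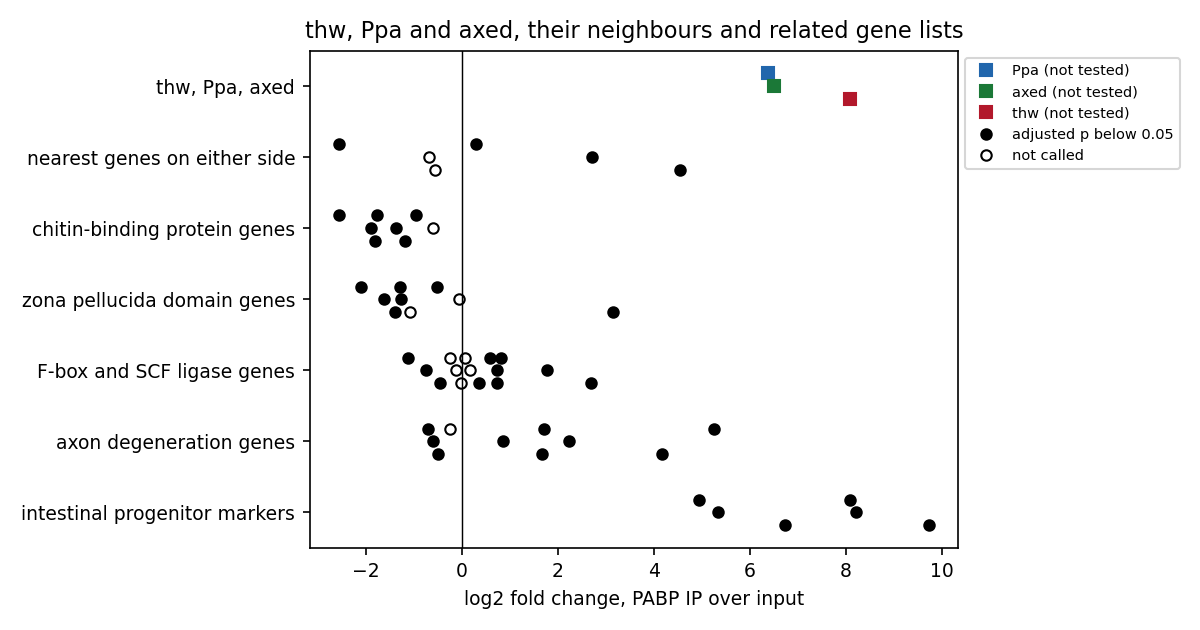
Log2 fold change of PABP IP over input for thw, Ppa and axed (squares, not tested), for the tested nearest neighbours and for the tested members of related gene lists; filled circles passed an adjusted p below 0.05 and open circles did not. Most related genes lie between -3 and 3, and only peb, Naam and robo1 exceed 4 apart from the progenitor markers and the trio itself.

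The authors' deposited table ordered the trio differently by fold change and by Wald score. It gave thw a log2 fold change of 7.66 with a standard error of 0.77, Ppa 5.91 with 0.27 and axed 6.01 with 0.22. By fold change thw ranked 5 of the 12247 genes in the authors' deposited table, axed 19 and Ppa 20. By the Wald score, the fold change over its standard error, axed ranked 7 in the authors' deposited table, Ppa 32 and thw only 673. That score tests the same ratio that chose the genes, so these ranks are a description only. The base means of that table cover libraries not analysed here, so its standard errors may rest on those too. The gene with the largest fold of the 3 thus had the lowest Wald score of the 3.

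The scaling of the libraries moved all 3 fold changes by nearly the same amount. With library size alone the log2 fold change was 7.25 for thw, 5.54 for Ppa and 5.64 for axed. The median of all tested genes moved too, to -0.95 with library size alone, -0.71 with upper-quartile factors and -0.59 with the authors' size factors, against -0.10 under TMM. Relative to that median, thw stood at 8.19, Ppa at 6.49 and axed at 6.60 under TMM; a change of scaling moves all genes together, so these distances hardly depend on it.

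**Figure D4:**
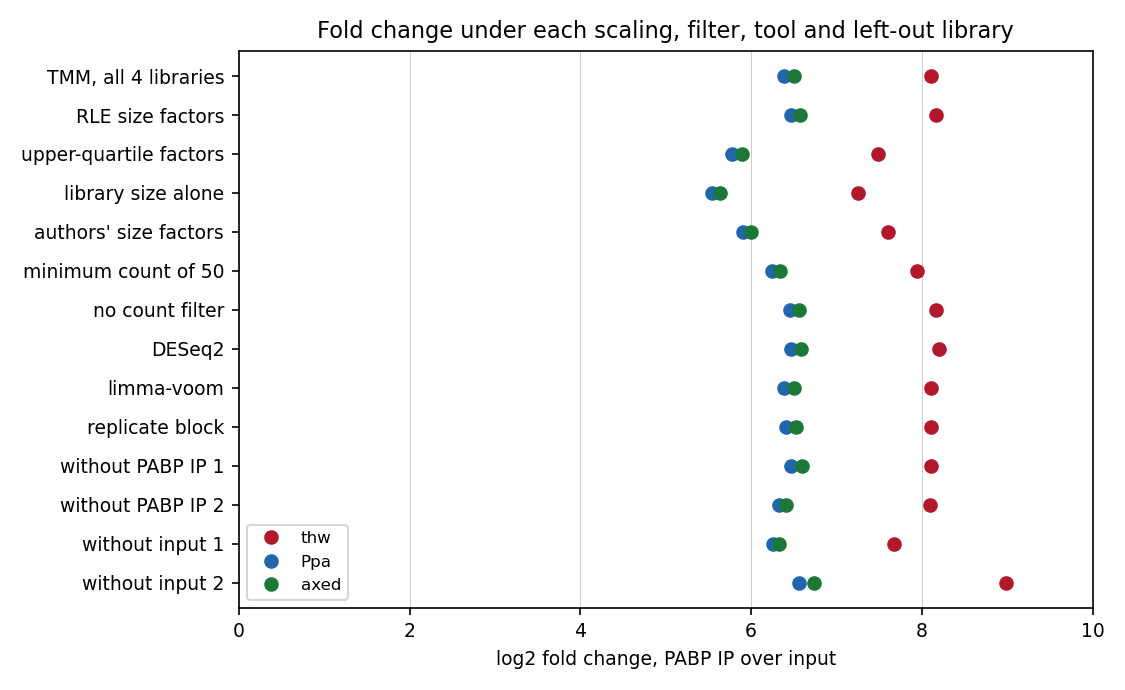
Log2 fold change of PABP IP over input for thw, Ppa and axed under each scaling, filter, tool and left-out library. Ppa and axed stay side by side between 5.54 and 6.73, and thw ranges from 7.25 with library size alone to 8.98 without input 2.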

How the data were processed

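The deposited read counts are whole numbers per gene for 4 libraries, not normalized, with a length in bases as another value beside each gene, per the file headers. The submitters' processing notes name featureCounts, Subread 2.0.0, SAMtools 1.10, STAR 2.7.3a, cutadapt 2.9 and DESeq2, with no settings. The genome build, strand setting and duplicate handling were each not given in the sources used here. No coordinates are therefore printed. The authors' deposited DESeq2 table holds a Wald score, p-values, log2 fold changes with their errors and a normalized signal per library, which is the count over a size factor (3.22 and 3.68 in the IP libraries, 1.09 and 1.51 in the input libraries). A row without a gene name, at most 0.000418% of a library's counts, was left out.

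Counts were tested with edgeR 4.0.16 (R 4.3.3): genes were kept by filterByExpr (minimum count 10), scaled by TMM and fitted by glmQLFit with glmQLFTest, two-sided, Benjamini-Hochberg adjustment over 9989 genes, called below 0.05. Ratios of summed counts carry exact conditional binomial 95% intervals and single counts exact Poisson intervals (scipy 1.17.1). Reads are not known to be independent molecules. The replicates of a group were not 1 library deposited again (chi-square of their counts, per degree of freedom, 7.93 in the IP and 2.85 in the input), so each library counts as 1. Names and neighbours came from the RefSeq gene table of Release 6 plus ISO1 MT, where dp is dpy, FipoQ is CG2010 and Sarm is Ect4 in the counts.

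The members and lists were chosen with earlier results of these data known. Named were the 3 genes, for each the 3 nearest profiles (log2 CPM with a prior count of 2), the next gene on either side, up to 5 genes per list with the lowest p, prd and cid, and esg, Sox21a and Dl. The chitin-binding list, other list members used as exceptions, and the nearest protein-coding neighbours were added later. The settings varied were the scaling (RLE, upper quartile, library size, the authors' factors), a minimum count of 50, no count filter, DESeq2 1.42.0, limma-voom (limma 3.58.1), a replicate block and each library left out.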

Additional observations from a re-analysis of the deposited data

How the results depend on the processing

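The 3 fold changes kept their sign under all 13 alternatives, which genes of such large fold could hardly fail to do. Ppa and axed moved by more than the replicate spread (0.23 and 0.31 in log2) only with another scaling: under upper-quartile factors to 5.78 for Ppa and 5.89 for axed, under library size alone to 5.54 and 5.64, and under the authors' size factors to 5.90 and 6.0. For thw that spread was 0.95, so its move to 7.25 with library size alone stayed within it. This reflects its noisy input, not a steadier value. The ratio of summed counts gave log2 values of 8.12, 6.39 and 6.50 for thw, Ppa and axed. Leaving out 1 library gave 7.67 to 8.98 for thw, 6.26 to 6.56 for Ppa and 6.32 to 6.73 for axed. Input counts of 2 and 7 limit thw most. The replicate numbers were not taken to pair the libraries. The groups' replicate differences over genes had r = -0.0897. This cannot decide on pairing, as the labels assign the groups to different cells. The replicate block gave 8.10, 6.41 and 6.52, and calls of 3660 higher and 3817 lower over all genes, against 3708 and 3873 without it. Over all genes 2209 were higher and 6347 lower with library size alone, so 25.8% of the calls were higher there, 31.0% with upper-quartile factors, 33.8% with the authors' size factors and 55.9% in DESeq2, against 48.9% under TMM. F-box and SCF genes called higher numbered 2 under upper-quartile factors (8 lower), 2 under library size alone (9 lower) and 3 under the authors' size factors (6 lower). Chitin-binding genes called lower numbered 4 in DESeq2, and 4 to 8 with 1 library left out. Cul1, Fbl6, Roc1a and Nmnat turned to -0.13, -0.13, -0.04 and -0.01 with library size alone. Under library size, upper-quartile and the authors' factors, Rexo5 turned to -0.55, -0.31 and -0.20, SkpA to -0.51, -0.26 and -0.15, and Myo31DF to -0.37, -0.13 and -0.02. These turns go with the shift of the median of all genes under those scalings. Of 48 other genes named from lists, profiles or position and recomputed, 32 were tested under every alternative and kept direction and call. Another 5 fell below the count filter in at least 1 alternative, of which CG14607 kept its call in those that tested it.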

Other observations

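The base mean in the authors' deposited table was 44.1 for thw, 480 for Ppa and 529 for axed, against means of 342, 1288 and 1134 over its 4 library columns. That table also lists a base mean above 0 for 959 genes that are at 0 in all 4 columns. The base mean therefore covers libraries beyond these 4, which were not analysed here.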
